A study of Oryza sativa with 6 samples.

Results

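The WRKY family of rice was examined in S3-stage seeds of plants in which *OsMADS29* was silenced, through the probe sets that the annotation of the Affymetrix rice genome array pairs with a single gene whose symbol or synonym is WRKY or OsWRKY and a number. This rule found 6 genes with 7 probe sets, out of 17905 genes with a probe set of their own. They were *OsWRKY24*, *OsWRKY51*, *OsWRKY62*, *OsWRKY71*, *OsWRKY76* and a gene listed as *WRKY9* (gene ID 4343736). Other WRKY genes of rice carry no such name in the annotation used and were not analysed here, so the 6 genes are a small part of the family. The samples were whole seeds of the indica variety PB1, taken 5 to 10 days after pollination. Of the 6 arrays, 3 came from wild-type plants (WT) and 3 from plants with an RNA interference construct against *MADS29* (MADS29KD), which is the sole difference between the groups that the labels give. The promoter of the construct, and whether each MADS29KD sample came from its own transformed line, were not stated in the sources at hand. The p-values therefore measure the spread between these samples.

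WRKY proteins are transcription factors of plants that carry a conserved DNA-binding domain with a zinc finger and bind a short promoter element, the W-box. Many of them switch on within hours of attack by a pathogen, downstream of MAP kinases and salicylic acid, and act as activators or repressors of defence genes. In the cereal grain some members act in the aleurone, the outermost cell layer of the endosperm, where they hold back the response to gibberellin and with it the alpha-amylases that break down starch.

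Of the 6 WRKY genes, 3 were expressed and 3 were not. Expressed here means that the probe set reached an intensity of 8 on at least 1 array, a level that on 5 of the 6 arrays was passed by at most 2 of 64 probe sets for reporter genes foreign to rice, and by 3 on MADS29KD replicate 2. *WRKY9*, *OsWRKY51* and *OsWRKY71* met it, and *OsWRKY24*, *OsWRKY62* and *OsWRKY76* stayed under 8 on all 6 arrays. Of all genes with a probe set of their own, 27.18% stayed under 8 on every array. Limma called 0 of the 6 WRKY genes different between MADS29KD and WT at an adjusted p under 0.05, and 0 of them had an unadjusted p under 0.05. Of all 17905 genes, 25.7% were called and 45.7% had such an unadjusted p. Among all expressed genes, 34.7% were called, 14.5% as higher in MADS29KD and 20.2% as lower, and 56.1% had such an unadjusted p. Of the genes under 8 on every array, 1.52% were called. The median log2 difference of the 3 expressed WRKY genes was 0.12, and that of the 13038 expressed genes was −0.09. The 0.12 is the value of *OsWRKY71*, which reached 8 on 0 WT arrays and 2 MADS29KD arrays. It counts as expressed through MADS29KD alone, so nothing is read from this contrast. In whole seeds a lower signal can come from fewer cells of a type or from less RNA per cell, and the arrays cannot tell these apart.

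**Figure D1:**
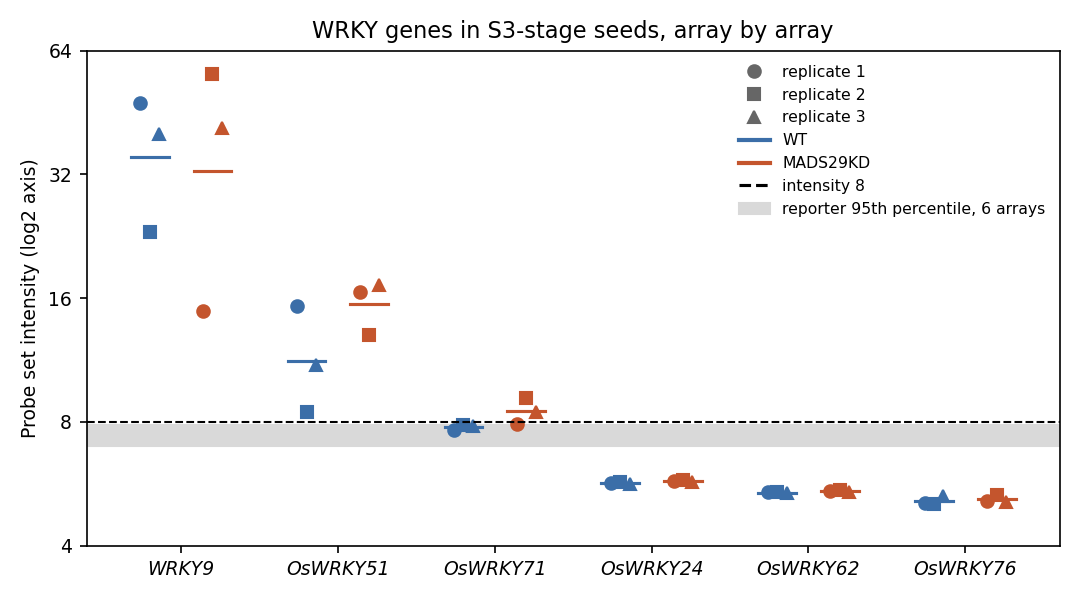
Intensity of the 6 WRKY genes (log2 axis) on each array, 1 probe set per gene, with WT in blue and MADS29KD in orange, symbols for replicate numbers and bars for the mean of the log2 values of a group. The dashed line is the intensity of 8, and the grey band spans the 95th percentile of the foreign reporter probe sets on the 6 arrays (6.995 to 7.88). *WRKY9* and *OsWRKY51* lie above the line on all arrays, *OsWRKY71* lies next to it, and the other 3 genes lie under the band.

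*WRKY9* had the widest range of signals in the family. WRKY numbers differ between naming schemes of rice, so no known function is assigned to it here. Its intensity was 47.7, 23.1 and 40.1 in WT replicates 1 to 3 and 14.9, 56.2 and 41.5 in MADS29KD replicates 1 to 3. The highest and the lowest of the 6 signals both came from MADS29KD, so the groups overlapped fully. On the log2 scale the WT mean was 5.14 ± 0.54 and the MADS29KD mean 5.03 ± 1.00 (both SD, n = 3). The log2 difference was −0.12 ± 0.60 (SE) with a 95% interval from −1.70 to 1.47, or 0.309-fold to 2.76-fold of WT (limma adjusted p = 0.885). With this spread, a change of 2-fold in either direction was not detectable. The residual SD of *WRKY9*, 0.807 on the log2 scale, was larger than that of 99.79% of the 2436 expressed genes with a similar mean, whose median was 0.181.

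The low arrays of *WRKY9* were also the arrays with low signal at the 5′ end of actin, a control for how far labelled cRNA reaches into a transcript. The 5′ actin intensity was 5.01 in WT replicate 2 and 6.74 in MADS29KD replicate 1, against 58.0 to 85.8 on the other 4 arrays. The 5′ probe set of dap, a bacterial control transcript, was lowest on the same arrays, at 7.08 and 12.5 against 46.3 to 139 on the others. On those 4 arrays *WRKY9* stood at 40.1 to 56.2, with the WT and MADS29KD signals overlapping. With the 5′ actin class as a block in limma, *WRKY9* was lower on the 2 arrays, with a log2 difference of −1.31 ± 0.25 (SE, unadjusted p = 0.00737, adjusted p = 0.18). Of expressed genes, 1.5% were called between these classes at an adjusted p under 0.05, and *WRKY9* was not among them, while 31.2% had an unadjusted p under 0.05. A difference as low as that of *WRKY9* was seen in 19 of the 13038 expressed genes (0.146%), and both arrays were the lowest of their groups in 10.2% of them. The same block left the difference between MADS29KD and WT at −0.12 and narrowed its 95% interval to −0.79 to 0.56. Within the 4 arrays with 5′ signal the difference was 0.14 (adjusted p = 0.633), and between the 2 arrays without it −0.63, with no test. The part of this 5′ loss, which the bacterial control shares with actin, in the *WRKY9* signal was not tested.

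**Figure D2:**
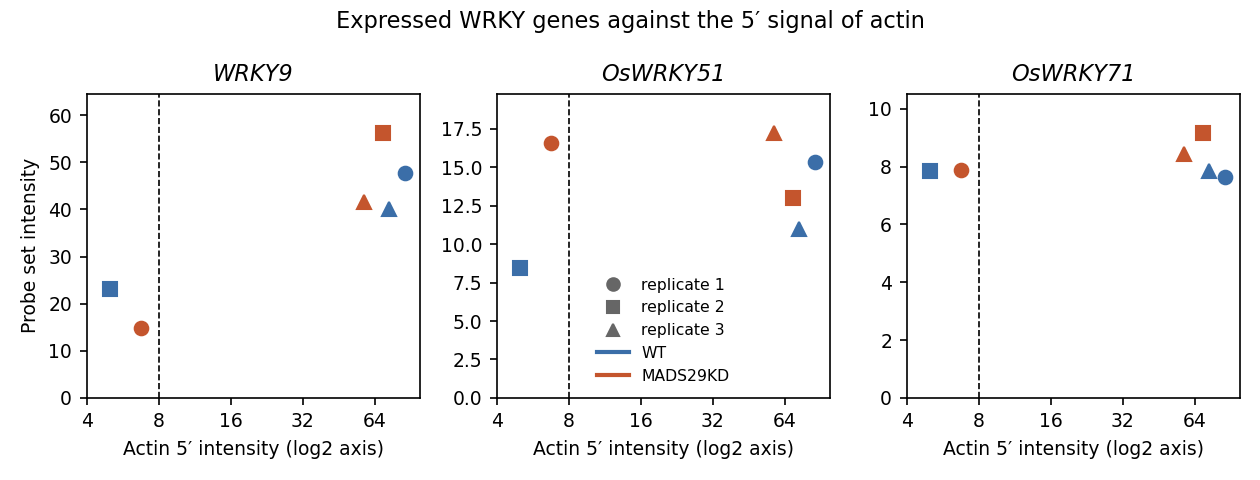
Intensity of the 3 expressed WRKY genes (linear axes from 0) against the intensity of the 5′ actin probe set (log2 axis), 1 point per array, with WT in blue, MADS29KD in orange and a dashed line at the intensity of 8. *WRKY9* is at 23.1 and 14.9 on the 2 arrays left of the line and at 40.1 or more on the other 4, whereas *OsWRKY51* and *OsWRKY71* show no such division.

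*OsWRKY51* was expressed on all 6 arrays at low signal. In rice aleurone cells its protein is known to bind to OsWRKY71 and to strengthen the repression of an alpha-amylase promoter. Its intensity was 15.3, 8.46 and 11.0 in WT replicates 1 to 3 and 16.6, 13.0 and 17.2 in MADS29KD replicates 1 to 3. Of the MADS29KD arrays, 2 lay above every WT array and replicate 2 lay under WT replicate 1, so the groups overlapped. On the log2 scale the WT mean was 3.49 ± 0.43 and the MADS29KD mean 3.95 ± 0.22 (both SD, n = 3). The log2 difference of 0.46 ± 0.26 (SE) corresponded to 1.37-fold, with a 95% interval from 0.865-fold to 2.18-fold (limma adjusted p = 0.255). WT replicate 2, at 8.46, lay near the limit of detection. The difference was 0.25 without WT replicate 2 and 0.68 without WT replicate 1. It was 0.97 between the 2 arrays without 5′ actin signal and 0.20 within the other 4 (adjusted p = 0.595).

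*OsWRKY71* lay at the edge of detection. Its protein is known as a repressor of gibberellin signalling in the rice aleurone and as a regulator of defence. The brighter of its 2 probe sets gave 7.64, 7.87 and 7.83 in WT replicates 1 to 3 and 7.90, 9.16 and 8.45 in MADS29KD replicates 1 to 3. Each MADS29KD array was above each WT array, by 0.0295 intensity units at the closest pair. Of expressed genes, 26.2% had MADS29KD arrays that were all higher than the WT arrays. The log2 difference was 0.12 ± 0.06 (SE), or 1.09-fold, with a 95% interval from 0.982-fold to 1.21-fold (limma adjusted p = 0.212). All 3 WT arrays and MADS29KD replicate 1 were under 8 and the interval includes no change, so no lower bound of a rise is given. The 95th percentile of the foreign reporter probe sets was higher in MADS29KD too, at 7.60, 7.88 and 7.49 in replicates 1 to 3 against 6.995 to 7.11 in WT, and its part in the *OsWRKY71* difference was not tested. *OsWRKY71* was above this percentile of its own array on all 6 arrays. The second probe set of the gene was under 8 throughout, at 5.73 to 5.82 in WT and 5.87 to 6.10 in MADS29KD (log2 difference 0.05, adjusted p = 0.156).

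Of the 6 WRKY genes, *OsWRKY71* was the nearest to the limit of 8 from above, with a brightest array of 9.16, and *OsWRKY24* the nearest from below, with a brightest array of 5.78. No WRKY gene had its brightest array between these values.

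*OsWRKY24*, *OsWRKY62* and *OsWRKY76* gave signals in the range of the foreign reporter probe sets, whose median was 5.50 to 5.62 on the 6 arrays. *OsWRKY24* is known as a repressor of gibberellin and abscisic acid signalling in aleurone cells, and *OsWRKY62* and *OsWRKY76* as repressors of resistance to blast fungus and to bacterial blight. The annotation also lists *OsWRKY62* as *XB10*, a name for proteins that bind the immune receptor XA21. *OsWRKY62* and *OsWRKY76* are adjacent protein-coding genes in the RefSeq table of assembly ASM3414082v1.

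*OsWRKY24* was at 5.69, 5.71 and 5.66 in WT replicates 1 to 3 and at 5.75, 5.78 and 5.72 in MADS29KD replicates 1 to 3. Its groups did not overlap, but the log2 difference was 0.02 (limma adjusted p = 0.185). *OsWRKY62* was at 5.37 to 5.40 in WT and 5.40 to 5.46 in MADS29KD, with a log2 difference of 0.01 (adjusted p = 0.261). *OsWRKY76* was at 5.06 to 5.27 in WT and 5.12 to 5.33 in MADS29KD, with a log2 difference of 0.02 (adjusted p = 0.623). All 3 genes had the higher mean in MADS29KD, by at most 0.02 on the log2 scale. Of the 4867 genes under 8 on every array, 48.4% had all MADS29KD arrays above all WT arrays. The median of the reporter probe sets differed in the same direction, at 5.50 to 5.54 in WT and 5.56 to 5.62 in MADS29KD (p = 0.10 in an exact permutation test, two-sided, which cannot give a smaller value with 3 arrays per group). The narrow intervals of these 3 genes describe array background and place no limit on a change of transcripts below detection.

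**Figure D3:**
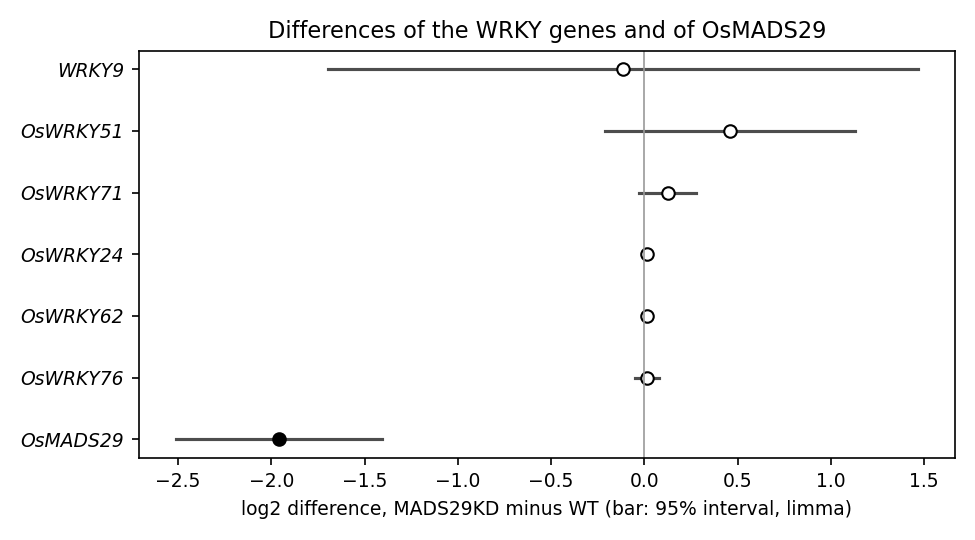
Log2 difference between MADS29KD and WT for the 6 WRKY genes and for *OsMADS29*, with bars for the 95% interval of the limma fit, a filled point for an adjusted p under 0.05 and open points otherwise. The bars of all WRKY genes cross 0, that of *WRKY9* from −1.70 to 1.47, while that of *OsMADS29* lies between −2.51 and −1.41.

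The silenced gene was lower in each MADS29KD array. *OsMADS29*, a B-sister gene of the MADS-box family, had intensities of 143, 96.8 and 158 in WT and 35.9, 34.4 and 29.9 in MADS29KD, a log2 difference of −1.96 ± 0.21 (SE, limma adjusted p = 0.00725). With replicate number as a block the adjusted p was 0.0796. The labelled tissue was checked against markers. Of 8 endosperm genes with a probe set, 7 were expressed, *GLUB-4* was under 8, and the other glutelin genes and *Wx* gave intensities of at least 4442. All 3 genes of green tissue were expressed, and of 4 anther genes *DTM1* alone. The markers differed between the groups. Of the 7 expressed endosperm genes 5 rose (71.43%) and 0 fell, against 14.5% and 20.2% of all expressed genes. The summed intensity of the list was 40375 to 44066 in WT and 52816 to 53443 in MADS29KD. The probe sets of *GLUA-1* (s_at) and of *GLUA-2*, *Sbe1* and *Wx* (x_at) are of kinds to which related transcripts can add. The same holds for the green tissue genes *OsrcaA1* and *OsrbcS* (x_at). In green tissue genes *OsrcaA1* rose by 1.80 and *CAB2R* fell by 1.20 on the log2 scale, while *OsrbcS* was not called (limma adjusted p = 0.15). The summed intensity of all 3 was 8190 to 8658 in WT and 4454 to 4793 in MADS29KD. Most of it was *CAB2R*, at 7681 to 8136 in WT and 3141 to 3724 in MADS29KD, so the sum mainly repeats that gene. *DTM1* rose by 0.90, with a summed intensity of anther genes of 56.0 to 66.1 in WT and 90.7 to 112 in MADS29KD, and its call was lost without any array but MADS29KD replicate 2 (adjusted p up to 0.0762). The part of these shifts in the lists that follow was not tested.

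Around the WRKY genes, MAP kinase genes were expressed by the rule used here, though *MPK15* reached 8 on 2 WT arrays and 0 MADS29KD arrays. Some MAP kinases are known to phosphorylate WRKY proteins during defence. The list also holds *OsMEK1*, for a kinase that acts on MAP kinases. All 16 genes of the list with a probe set were expressed, 3 rose and 0 fell, and their median log2 difference was 0.14. With the 5′ actin block 6 of the 16 were called higher and 2 of the 16 lower, against 18.2% and 25.4% of all expressed genes. The added calls were *OsMAP3* (adjusted p = 0.0129), *MPK13* (0.0149) and *MPK17* (0.0134) as higher and *MPK6* (0.0476) and *MPK16* (0.0454) as lower. Kinase numbers differ between names too. The *MPK6* entry is gene ID 4349225, whereas the name *OsMAPK6* is carried by *MPK1* and by *MPK7*. *MPK1* was at 73.6 to 87.8 in WT and 66.8 to 80.7 in MADS29KD. It was not called (limma adjusted p = 0.28, or 0.153 with the 5′ actin block). Without the block, the 3 that rose were 18.75% of the list, against 14.5% among all expressed genes. *MPK7* was at 40.4, 48.0 and 39.9 in WT and 85.8, 87.5 and 87.5 in MADS29KD, with a log2 difference of 1.03 ± 0.08 (SE, limma adjusted p = 0.00283). *MPK2* was at 59.2 to 69.6 in WT and 126 to 164 in MADS29KD, with a log2 difference of 1.10 ± 0.12 (adjusted p = 0.00805, or 0.0588 in the 4 arrays with 5′ actin signal). In both genes every MADS29KD array was above every WT array, as in 26.2% of all expressed genes. The *MPK2* probe set is of the s_at kind, to which related transcripts can add. *MPK10* was at 9.52 to 17.3 in WT and 48.2 to 128 in MADS29KD, with a log2 difference of 2.67 ± 0.48 (adjusted p = 0.0326). Its call held without MADS29KD replicate 1 and was lost without any other array (adjusted p up to 0.102). *OsMAPK5*, a kinase of the disease response also listed as *OsMPK3*, was at 10.0 to 10.3 in WT and 10.3 to 12.1 in MADS29KD (adjusted p = 0.268).

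Among genes of salicylic acid signalling and defence outputs, 0 were called higher and 4 fell. Most genes of this list are chitinase genes, and those that fell were chitinase genes and *PBZ1*. Of 15 genes with a probe set 9 were expressed, and the 4 that fell were all among these (44.44%, against 20.2% of all expressed genes). Among the 4, *Cht-3* reached 8 on 1 WT array and 0 MADS29KD arrays, so this share includes a gene expressed through WT alone. The chitinase gene *Cht5*, for an enzyme that cuts fungal cell walls, was at 413, 430 and 447 in WT and 142, 147 and 150 in MADS29KD, with a log2 difference of −1.56 ± 0.04 (SE, limma adjusted p = 0.000189). *Cht2*, for another chitinase, was at 89.3 to 98.8 in WT and 31.9 to 37.9 in MADS29KD, with a log2 difference of −1.42 ± 0.08 (adjusted p = 0.00113). *PBZ1*, a pathogenesis-related gene, was at 1381 to 1431 in WT and 1031 to 1103 in MADS29KD, with a log2 difference of −0.38 ± 0.03 (adjusted p = 0.00337). For these 3 genes the groups did not overlap. Such a gap is common in these data, since 26.2% of expressed genes had it in the other direction, with MADS29KD higher. The fourth, *Cht-3*, gave signals of 7.21 to 8.11 around the limit of detection on an x_at probe set, and its call was lost without any 1 of 4 arrays, WT replicate 3 or a MADS29KD replicate (adjusted p up to 0.107). *Cht11* was at 8.25 to 11.6 in WT and 12.8 to 21.0 in MADS29KD, with a log2 difference of 0.73 ± 0.24 (SE, adjusted p = 0.136). It was called higher with the 5′ actin block (adjusted p = 0.00886) and in the 4 arrays with 5′ signal (0.0368). *OsNH1*, the rice counterpart of the salicylic acid receptor gene *NPR1* of Arabidopsis, was under 8 on all arrays. The gene listed as both *NPR1* and *OsNH2* was at 99.4 to 119 in WT and 99.4 to 132 in MADS29KD (adjusted p = 0.961). *PAL06*, on the same list, was at 537 to 665 in WT and 495 to 611 in MADS29KD (adjusted p = 0.554).

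Of 7 genes listed for the gibberellin response in the aleurone, where *OsWRKY51* and *OsWRKY71* are known to act, 5 were expressed. Of these, 2 rose and 2 fell (40.0% each way, against 14.5% and 20.2% of all expressed genes). The rising share includes *RAmy3E*, which reached 8 on 0 WT arrays and 3 MADS29KD arrays and so counts as expressed through MADS29KD alone. The falling share includes a gene, listed as *GID2*, whose place in this list is uncertain. *RAmy3E*, for an alpha-amylase, was at 7.31, 6.42 and 6.30 in WT and 50.0, 74.6 and 75.4 in MADS29KD. With all WT arrays under 8 this was at least 8.19-fold higher (limma adjusted p = 0.00128), and its probe set is of the s_at kind too. The alpha-amylase genes *RAmy3A* and *RAmy3D* were under 8 on all 6 arrays. *RAmy1A*, an alpha-amylase gene planned for this list, is not among its genes, whose amylases all carry *RAmy3* names. Whether the *RAmy3E* signal depends on gibberellin or on the WRKY genes was not tested. *OsGAMYB*, for a MYB factor that activates alpha-amylase promoters, was at 50.3 to 52.7 in WT and 36.8 to 40.8 in MADS29KD, with a log2 difference of −0.40 ± 0.04 (SE, adjusted p = 0.00788), on a probe set of the x_at kind. The receptor gene *gid1* was at 18.6 to 26.8 in WT and 42.5 to 51.9 in MADS29KD (log2 difference 1.10 ± 0.16, adjusted p = 0.018). The gene listed as *GID2* (gene ID 4329775) also carries the name *GF14E*, which belongs to a 14-3-3 protein, so the signal cannot be assigned to the F-box gene *GID2*. It was at 590 to 809 in WT and 381 to 447 in MADS29KD (log2 difference −0.70 ± 0.14, adjusted p = 0.0467). The calls of *gid1* and *GID2* were lost without any array but WT replicate 2 (adjusted p up to 0.0836 and 0.141). *SLR1*, for the DELLA repressor of the gibberellin response, was at 28.1 to 33.4 in WT and 27.2 to 33.8 in MADS29KD (adjusted p = 0.733).

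**Figure D4:**
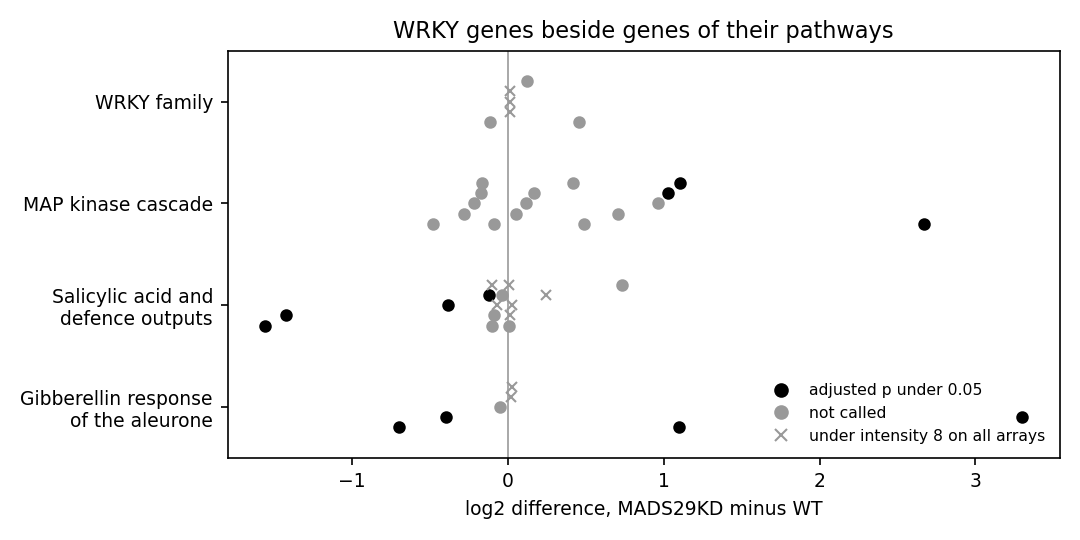
Log2 difference between MADS29KD and WT for the WRKY genes and for 3 lists of genes from their pathways, 1 point per gene, black where the limma adjusted p is under 0.05, grey otherwise, and a cross where the gene stayed under 8 on all arrays. No WRKY point is black, and the expressed ones lie between −0.12 and 0.46, whereas *RAmy3E* lies at 3.30 and *Cht5* at −1.56. The *RAmy3E* point uses WT signals that were all under 8, so its rise is known only as at least 8.19-fold. *RAmy3E* counts as expressed through MADS29KD alone.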

How the data were processed

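The deposited data were intensity values in a single table (57381 probe sets, 6 Affymetrix rice genome arrays), labelled from 500 ng of total RNA. The values are linear, from 3.98 to 16101, with column medians of 6.05 to 6.18. Background correction, summarization and normalization were not stated in the sources at hand. The intensity values were used as deposited, and log2 was taken before the tests. Tests covered the 57194 probe sets that remained after 123 with the prefix AFFX and 64 reporter probe sets were removed. Of these, 22436 had 1 gene in the annotation of the array, 95 had several and 34663 none. Names came from the RefSeq gene table by gene ID (17905 of 17905 genes matched). Each gene was represented by its probe set with the highest mean of log2 values.

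MADS29KD was compared with WT by limma 3.58.1 in R 4.3.3 (lmFit, eBayes), with Benjamini-Hochberg adjustment over all 57194 probe sets and a threshold of 0.05. The fit was first tested on simulated data. For a group with all arrays under 8, each array entered the log2 mean at the higher of 8 and its own signal. The fold of the other group's measured mean over it is given as "at least" for *RAmy3E*. No such bound is given for *OsWRKY71*, since MADS29KD replicate 1 was under 8 as well. Alternatives were a replicate block, quantile normalization, centring on bright probe sets, removal of dim probe sets, array weights, a variance trend, the 5′ actin class as a block or as a filter, other choices of probe set, a limit of 16, and each array left out. Unmoderated tests were added after seeing the data, as were the class comparison and the spread of genes with a similar mean (within 0.5 on the log2 scale). Same-numbered arrays of WT and MADS29KD had deviations from their group means that correlated at −0.53, −0.53 and 0.42, so replicate number was not used as a pairing.

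The WRKY genes and the lists were chosen with earlier results of these data known. Text names every WRKY gene found and, per list, up to 3 genes up and 3 down by adjusted p. *OsMAPK5*, *OsMAP3*, *OsMEK1*, *MPK1*, *MPK6*, *MPK13*, *MPK16*, *MPK17*, *Cht11*, *PAL06*, *OsNH1*, *NPR1*, *SLR1*, *RAmy3A*, *RAmy3D* and *Cht-3* were named after their values were seen. A WNK kinase gene with a MAP kinase synonym was left out. The number of arrays limits the precision. Promoter and protein sequences were not used here.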

Additional observations from a re-analysis of the deposited data

How the results depend on the processing

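Limma called 0 WRKY genes under all 18 alternatives, and 1 of the 3 expressed genes had an unadjusted p under 0.05 in 6 of the settings. *OsWRKY51* and *OsWRKY71* were higher in MADS29KD in every alternative that gave a value, at 0.20 to 0.68 and 0.07 to 0.19 on the log2 scale. The direction of *WRKY9* turned. Its difference was 0.14 in the 4 arrays with 5′ actin signal and −0.51 to 0.45 with single arrays left out, positive without WT replicate 1 (0.10) or MADS29KD replicate 1 (0.45), and −0.81 with array weights. *OsWRKY62* turned to −0.0001 with quantile normalization, and *OsWRKY76* ranged from −0.0025 to 0.0349 with single arrays left out, both at background. The median of the expressed WRKY genes ranged from 0.07 to 0.41 with single arrays left out, and was 0.41 without MADS29KD replicate 1.

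With the replicate block, 2140 probe sets were called in place of 6490, and no call of a WRKY gene changed. *OsMADS29* stayed at −1.96 with an adjusted p of 0.0796 in this limma fit. Whether replicate numbers mark a shared batch is not stated. With single arrays left out, 3596 to 5475 probe sets were called. The fewest came without WT replicate 3, and 3912 came without WT replicate 1 and 4288 without MADS29KD replicate 2. *OsMADS29* was then at −2.17 to −1.82 and remained called. The cause of these changes was not tested. With 3 arrays a group, changes of *WRKY9* from 0.309-fold to 2.76-fold lay within its 95% interval, and changes of genes that stayed under the intensity of 8 could not be measured.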
